A study of Mus musculus with 4 samples.

Results

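Peaks of N6-methyladenosine (m6A) whose summit lay outside every annotated gene, but within the 5 kb that follow a protein-coding gene, were examined in c-Kit-enriched mouse foetal liver cells. They numbered 215 of the 15635 peaks of m6A immunoprecipitation (IP) replicate 1 and 198 of the 14872 peaks of IP replicate 2. Members were chosen by position alone: the summit of each peak had to fall outside all GENCODE M21 gene records and on the downstream side of a protein-coding gene, given the strand of that gene. They made up 18.4% (exact 95% interval 16.2 to 20.7) of the 1169 summits outside genes in replicate 1 and 19.2% (16.8 to 21.7) of the 1032 in replicate 2.

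The series holds 4 samples, namely 2 IP and 2 input libraries of meRIP-seq, in which RNA fragments that carry m6A are captured with an antibody and sequenced beside unselected fragments. All came from C57BL/6 mice, and the cells were enriched with magnetic beads against CD117 (c-Kit), a receptor of haematopoietic stem and progenitor cells. By the methods of the study the cells were Ythdf2 CTL, that is, Ythdf2 fl/fl with no Cre: both copies of Ythdf2, which encodes an m6A reader, carry loxP sites and a GFP reporter fused to the protein. The labels give total RNA for the IP samples and polyA RNA for the input samples. A single list of peaks per IP replicate was analysed, and no values of the input libraries were analysed here. Intervals and tests therefore describe peaks counted in these 2 libraries, and not a contrast between groups. In the same lists, an exon of 5 of 8 stem and progenitor markers held a summit in both replicates (Cd34, Gata2, Lmo2, Tal1 and Runx1), against 4 of 8 erythroid markers and 2 of 8 hepatocyte markers (Apoa1 and Hnf4a). Of all protein-coding genes, 30.9% held an exonic summit in both replicates, and with 8 markers per type these counts were not tested. A transcript needs both expression and m6A to appear in such a list, and in cells taken in bulk fewer cells of a type and less RNA per cell cannot be told apart.

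m6A is placed on RNA by a nuclear methyltransferase complex, mostly at adenosines within the motif DRACH, of which GGAC is the most frequent core, and it is densest near stop codons and in 3′ UTRs. The 3′ end of a transcript is made by cleavage and polyadenylation, a short distance past a hexamer that is most often AATAAA. Many genes use several such sites, and an annotation may hold only the nearer of them, so RNA beyond an annotated end can belong to the gene before it, to a neighbouring gene or to a transcript of its own.

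The sequences at some of these peaks are shown first, because the peak lists carry no strand, whereas a sequence motif does. Each line gives 30 bases of GRCm38 around the GGAC nearest to both summits, read 5′ to 3′ on the strand of the named gene with GGAC in capitals. These genes were named by a rule set out with the processing and have no second copy of the peak in the genome.
Fan1 (minus strand, chr7:64346532-64346561): tggccatccactgGGACaagatcttcagat
Lpar5 (plus strand, chr6:125082543-125082572): gggctgggtacttGGACtttgaaacaactc
Pabpn1 (plus strand, chr14:54898215-54898244): actaactgaggagGGACctgctctgggagt
Prr14 (plus strand, chr7:127478706-127478735): tttgaaggcctctGGACtctttaaaggggt
Zfp114 (plus strand, chr7:24184565-24184594): actgtttcagtcaGGACttcatttaagact
Heatr5b (minus strand, chr17:78749987-78750016): tcagccaaccattGGACtgaacacagggtc
In the 2 libraries the methylatable A of these windows lay -16 and 2 bases from the summit for Fan1, 39 and 40 for Lpar5, -8 and -16 for Pabpn1, -11 and -23 for Prr14, 24 and 31 for Zfp114 and 61 and 47 for Heatr5b, counted in the direction of transcription.

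The 3′ ends that such RNA may reach are shown for the same kind of gene. The lines below give the poly(A) signal (AATAAA or its variant ATTAAA, in capitals) nearest to the end of the RefSeq transcript that runs over the peak and beyond the GENCODE end.
Lpar5 (plus strand, chr6:125086091-125086120): cagttagtactcAATAAAgactcgctaact
Ifnar1 (plus strand, chr16:91510485-91510514): agagaaggaaatAATAAAttcatatttgtt
Pabpn1 (plus strand, chr14:54898890-54898919): taatgtgtcatgAATAAAgttgttttatga
Zfp146 (minus strand, chr7:30160493-30160522): attatctattttATTAAAatttaaaatgac
The signal ended 21, 21, 20 and 18 bases before the RefSeq end of Lpar5, Ifnar1, Pabpn1 and Zfp146. These RefSeq ends lay 3657, 3082, 758 and 782 bases past the GENCODE ends of the same genes. Only ends with a signal are shown. The RefSeq transcript of Fan1, which also runs over its peak, had neither hexamer in its last 50 bases. For Ifnar1 the last 50 bases of the GENCODE gene held a signal as well.

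Peaks past gene ends rested on fewer reads than the bulk of the lists. The read pile-up at the summit, which was worked out from each peak's fold enrichment and -log10 p, had a median of 31 IP reads in replicate 1 and 32 in replicate 2, against 57 over all peaks of either list. The estimated background was low as well, with medians of 4.84 and 4.0 control reads against 13.0 and 10 over all peaks. The fold enrichment of IP over background had a median of 5.35 (lowest 1.65, highest 16.3) in replicate 1 and 5.55 (1.98 to 14.6) in replicate 2, beside 4.47 and 4.76 over all peaks. Summits outside genes and away from gene ends had fewer reads still, with medians of 19 and 22 IP reads over 2.0 and 2 control reads and a fold enrichment of 5.93 and 6.67. At a summit, 34.4% of the members of replicate 1 and 29.8% of those of replicate 2 rested on under 20 IP reads, so single weak members carry a wide counting error.

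Members reached across the whole 5 kb but were densest near the gene end. Their median distance past the end was 1823 bases in replicate 1 and 1750.5 in replicate 2, and 68 and 63 members lay within the first 1000 bases. Since part of the 5 kb past an end can lie inside other genes, counts were divided by the length of flank outside genes at each distance. Flank beyond such a gene still counted, so another gene could stand between an end and a member given to it. In the first 500 bases there were 5.08 summits per Mb of flank (exact Poisson 95% interval 3.67 to 6.84) in replicate 1 and 4.13 (2.88 to 5.75) in replicate 2. In the last 500 bases there were 2.39 (1.31 to 4.01) and 2.05 (1.06 to 3.57). The first 1000 bases held 2.24 times the density of the last 1000 (95% interval 1.37 to 3.81) in replicate 1 and 2.41 times (1.42 to 4.26) in replicate 2. Over the whole 5 kb the density was 3.11 and 2.86 summits per Mb, beside 0.702 and 0.614 per Mb of sequence outside genes and away from these ends.

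Before gene starts the profile was steeper. There, summits were crowded into the first 500 bases, at 20.7 per Mb (17.7 to 24.1) in replicate 1 and 19.1 (16.2 to 22.4) in replicate 2. From 1001 to 1500 bases the values before starts were 1.98 (1.11 to 3.27) and 1.19 (0.543 to 2.26) per Mb, and past ends they were 3.87 in both replicates (2.59 to 5.56 in each). A peak past a gene end can also stand before the start of another gene. Within 500 bases, on either side, 18 members of replicate 1 and 12 of replicate 2 had the start of another protein-coding gene that runs away from the summit. That gene can be on either strand, and its start can lie between the summit and the end before it. The member with the highest -log10 q, 55.6 in replicate 1, was of this kind. It lay 1735 bases past the end of Hes5, a Notch target gene, and 17 bases before the start of Pank4, with 72 IP reads and a fold enrichment of 13.6. The peak of replicate 2 that it overlapped was not a member. It was named after its values were seen.

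**Figure D1:**
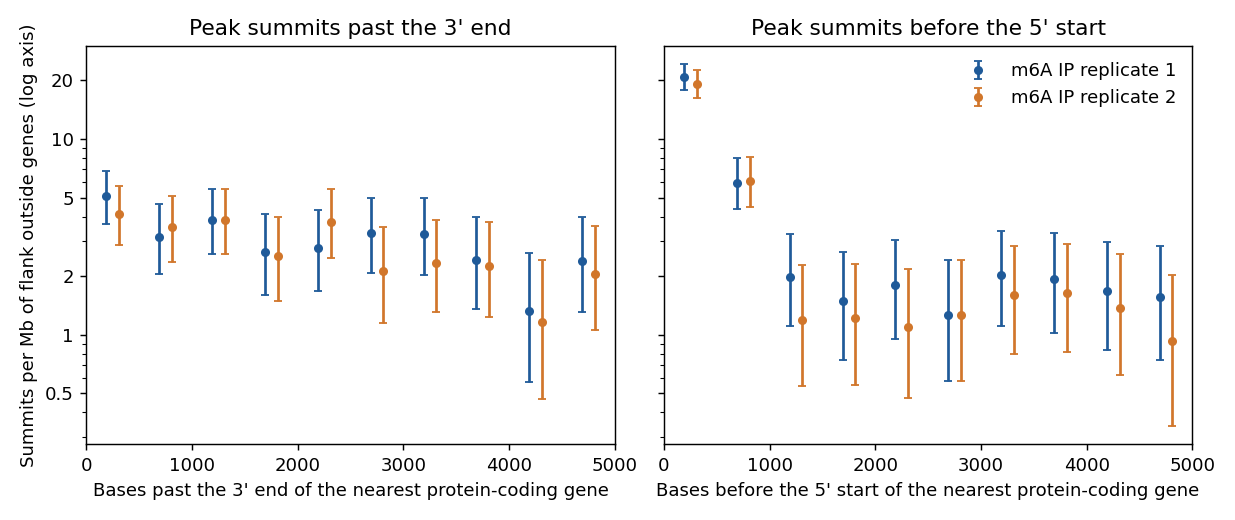
Peak summits per Mb of sequence outside genes (log axis) in bins of 500 bases, against the distance past the 3′ end (left) or before the 5′ start (right) of the nearest protein-coding gene. Points are the 2 IP replicates and bars are exact Poisson 95% intervals. Past gene ends the density falls slowly from 5.08 and 4.13 per Mb, whereas before starts it is 20.7 and 19.1 in the first bin and near 2 or lower beyond 1000 bases.

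Peaks lay close to the threshold of 5 kb on either side. Just inside it lay a peak past Gm11027 at 4993 bases (fold enrichment 7.80) and one past Cyp2d22 at 4995 (3.87) in replicate 1, and one past Gm15446 at 4923 (4.46) in replicate 2. Just outside lay peaks past Pigw at 5020 (3.28) and 5116 bases (4.91) in replicates 1 and 2, and a peak past Vdr, the vitamin D receptor, at 5026 bases in both (11.3 and 7.43). The peaks named inside rested on 10, 13 and 13 IP reads, in the order given. Those outside rested on 71 and 66 IP reads for Pigw and 30 and 38 for Vdr in replicates 1 and 2.

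To see whether another annotation places RNA at these summits, members were compared with the RefSeq annotation of the same build. An exon of the same gene covered the summit of 55 members of replicate 1 (25.6%, exact 95% interval 19.9 to 32.0) and 60 of replicate 2 (30.3%, 23.99 to 37.2). Of these, 49 and 56 lay in the 3′ UTR of a coding RefSeq transcript. A further 11 and 9 members lay in an exon of another gene on the same strand, 9 and 11 in an exon of a gene on the opposite strand, and 24 and 19 in an intron. Outside every RefSeq gene lay 116 members (54.0%, 47.0 to 60.8) of replicate 1 and 99 (50%, 42.8 to 57.2) of replicate 2. RefSeq exons covered only 3.24 Mb of the 69.1 Mb of flank, so the density there was 23.2 summits per Mb (18.2 to 29.1) in replicate 1 and 24.7 (19.6 to 30.8) in replicate 2. In flank outside RefSeq genes it was 1.88 (1.55 to 2.25) and 1.60 (1.302 to 1.95) per Mb.

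Several of the strongest peaks of the first class lay close to the GENCODE end. Zfp146, a zinc finger protein gene, had a summit 125 and 120 bases past its end with 164 and 170 IP reads and a fold enrichment of 3.92 and 3.70. Fan1, a nuclease of interstrand crosslink repair, had one at 228 and 210 bases with 73 and 72 IP reads (6.98 and 6.95). Lpar5, a receptor for lysophosphatidic acid, had one at 47 and 46 bases with 76 and 77 IP reads (7.91 and 6.19). In these genes the 2 replicates differed by no more than 18 bases in the position of the summit. Pabpn1, the nuclear poly(A)-binding protein, combined the deepest pile-up of any member, 197 and 190 IP reads at 69 and 77 bases, with low folds of 2.24 and 1.98, since its background stood at 100 and 91 control reads. The peaks of Zfp146, Fan1, Lpar5 and Pabpn1 all reached back into the gene body, and they were among 14 members of replicate 1 and 16 of replicate 2 that did so.

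Other members were far from the gene whose end they follow. Heatr5b, which encodes a HEAT repeat protein of membrane trafficking, had a peak at 2836 and 2850 bases with 47 and 52 IP reads over 3.40 and 3.40 control reads, a fold enrichment of 12.1 and 11.5, and no RefSeq gene at the summit. Cox6a1, a subunit of cytochrome c oxidase, had one at 4425 and 4424 bases (6.80 and 6.27), which was also 8 and 7 bases before the start of Triap1. That start lay between the summit and the end of Cox6a1, so Triap1 runs on the opposite strand. Rad18, a ubiquitin ligase of post-replication repair, had a peak at 3763 and 3778 bases (5.35 and 5.92), and like that of Cox6a1 it lay outside RefSeq genes. For Prr14 the summit at 1973 and 1985 bases (7.0 and 8.16) fell in a RefSeq exon of the next gene on the strand, Fbrs, and 467 and 455 bases before the GENCODE start of that gene. For Grpel2, a mitochondrial co-chaperone, the summit at 4594 and 4569 bases (8.69 and 7.77) fell in an exon of Pcyox1l, and 195 and 220 bases before its GENCODE start. Vmn2r85, a vomeronasal receptor gene, had a peak at 601 and 595 bases (4.94 and 4.45) within an intron of the pseudogene Ctdsp2-ps, and its sequence has a second match in the genome.

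**Figure D2:**
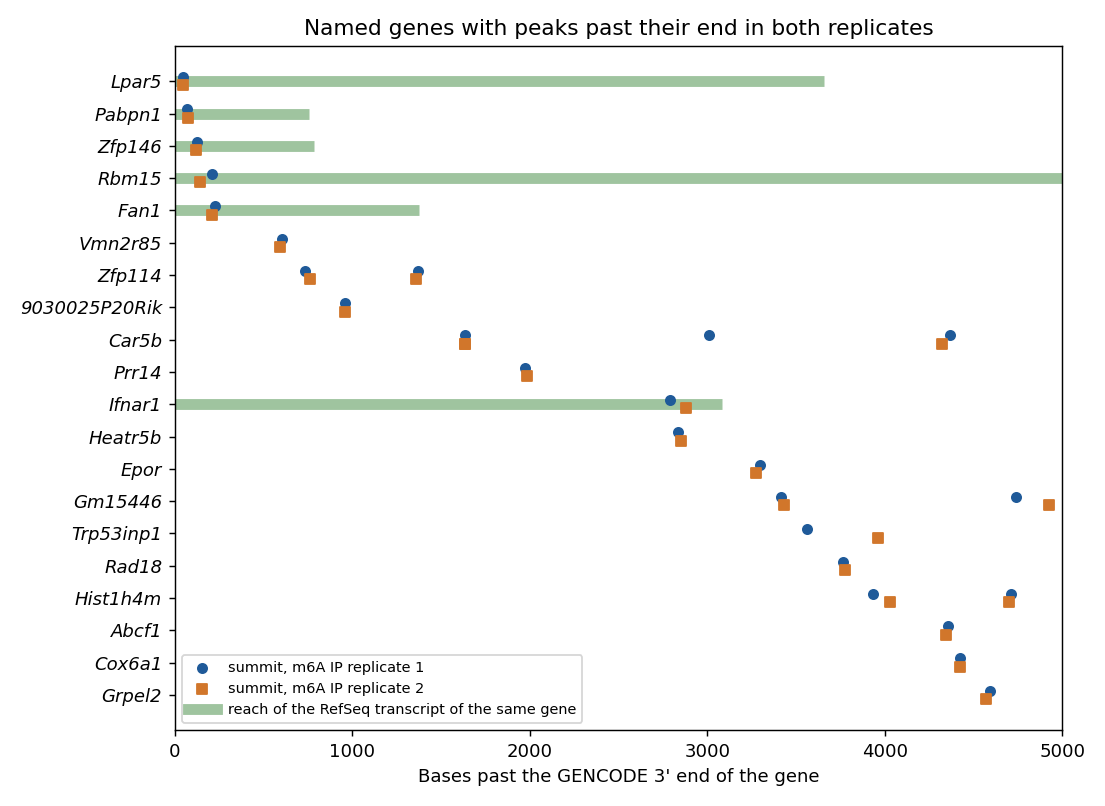
Summits of the 20 named genes outside the chromosome 2 interval, as bases past the GENCODE 3′ end, in IP replicate 1 (circles) and replicate 2 (squares). Green bars show how far a RefSeq transcript of the same gene that covers the peak runs past that end (the bar of Rbm15, which reaches 19910 bases, stops at the axis limit). Lpar5, Pabpn1, Zfp146, Rbm15, Fan1 and Ifnar1 have such a bar, and the summits of the other 14 genes, which have none, all lie over 500 bases past the end.

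The annotated ends of the genes with such peaks were unlike those of other genes. AATAAA or ATTAAA stood within the last 50 bases of the GENCODE gene in 55 of the 120 genes with a member in both replicates (45.8%, exact 95% interval 36.7 to 55.2), against 71.9% (71.3 to 72.5) of all 21938 protein-coding genes and 77.9% (76.9 to 78.9) of the 6780 with an exonic summit in both replicates. No 3′ UTR at all was annotated in 28 of the 120 (23.3%, 16.1 to 31.9) against 3.77% (3.52 to 4.03) of all protein-coding genes. Of the 120 genes, 95 lay outside the chromosome 2 interval described below, and there the shares were 54.7% (44.2 to 65.0) with a signal and 11.6% (5.92 to 19.8) without a 3′ UTR. Where a RefSeq transcript of the same gene covered the member, its further end carried a signal in the last 50 bases in 30 of 45 cases in replicate 1 (66.7%) and 33 of 48 in replicate 2 (68.8%). The GENCODE ends of these same genes carried one in 10 (22.2%) and 12 (25%). Those RefSeq ends lay a median of 2416 and 2859.5 bases past the GENCODE ends. No test was made on these shares, which describe the annotation of genes chosen by their peaks.

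Which strand the methylated RNA came from was asked with the motif. GGAC within 50 bases of the summit was present on the strand of the gene in 120 of the 215 members of replicate 1 (55.8%) and on the opposite strand in 54 (25.1%). In replicate 2 the counts were 113 (57.1%) and 40 (20.2%) of 198. In windows with the motif on a single strand, it was on the strand of the gene in 97 and on the other in 31 in replicate 1, and in 97 and 24 in replicate 2. The difference passed the exact McNemar test (two-sided) in replicate 1 (adjusted p = 8.31e-09) and in replicate 2 (adjusted p = 5.38e-11), with Benjamini-Hochberg adjustment over 4 tests. Any given strand of windows of the same length laid end to end over all flanks held GGAC in 24.5%. The opposite strand of all members held it in 25.1% and 20.2% in replicates 1 and 2, but these shares join unlike groups. Outside the chromosome 2 interval that strand held GGAC in 47 of 153 (30.7%) and 38 of 141 members (26.95%). The strand of the gene held it there in 75 and 66. Inside the interval the opposite strand held it in 11.3% and 3.51%. Members share sequence with each other, so windows are not independent. Without members that have a second copy the difference was 18.9 percentage points (adjusted p = 0.0106, exact McNemar test) in replicate 1 and 28.0 (adjusted p = 0.000202) in replicate 2, and without the chromosome 2 interval it was 18.3 (adjusted p = 0.00749) and 19.9 (adjusted p = 0.00705).

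The excess of the motif was centred just past the summit. An A of GGAC lay from 0 to 49 bases past the summit on the strand of the gene in 43.7% of members in replicate 1 and 40.9% in replicate 2, and on the opposite strand of the same bin in 12.6% and 13.1%. At 251 to 300 bases before the summit the strands held the motif in equal shares, 12.1% each in replicate 1 and 12.6% each in replicate 2. The profile was not symmetric. At 250 to 299 bases past the summit the strand of the gene still held more, 19.5% against 9.77% in replicate 1. In replicate 2 the shares there were 18.2% and 11.1%. In the bin that starts 200 bases before the summit the opposite strand held more. The shares were 17.7% against 13.0% in replicate 1 and 16.2% against 12.1% in replicate 2. By place in RefSeq, the strand of the gene held GGAC in 36 and the opposite strand in 17 of the 55 members of replicate 1 in an exon of the same gene (37 and 11 of 60 in replicate 2). Outside RefSeq genes the counts were 63 and 22 of 116 (55 and 17 of 99). Members in an exon of a gene on the opposite strand ran the other way, with the motif on the strand of the gene before them in 1 and on the opposite strand in 8 of 9 in replicate 1, and in 3 and 7 of 11 in replicate 2. Of the 9 in replicate 1, those at 1636, 3009 and 4369 bases were past the same gene, Car5b, so they do not stand for separate genes. By distance, the motif was on the strand of the gene in 60.3% and on the opposite strand in 20.6% of members within 1000 bases of the end in replicate 1 (55.6% and 22.2% in replicate 2). At 3001 to 5000 bases the shares were 36.2% and 31.0% in replicate 1 and 52.1% and 27.1% in replicate 2. These counts by place and by distance are a description, with no test.

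**Figure D3:**
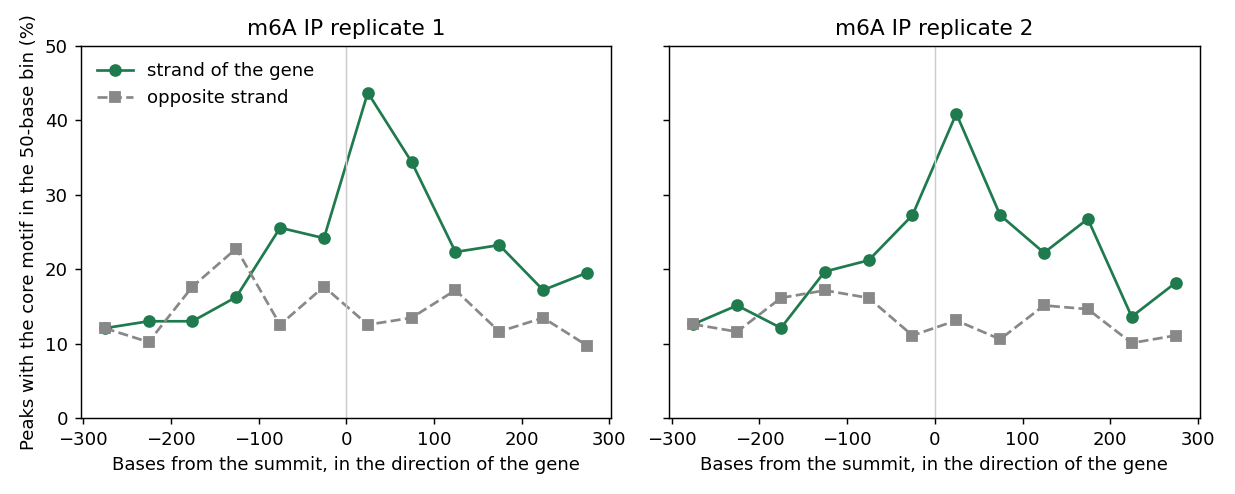
Share of members (%) with the A of GGAC, the core motif, in bins of 50 bases around the summit, read on the strand of the gene (circles) and on the opposite strand (squares), with distance counted in the direction of the gene. In the bin just past the summit the strand of the gene stands at 43.7% and 40.9% in IP replicates 1 and 2 and the opposite strand at 12.6% and 13.1%.

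Peaks in exons of opposite-strand RefSeq genes included some of the strongest. The gene 9030025P20Rik had a summit at 957 and 958 bases past its end with a fold enrichment of 10.3 and 9.11, in an exon of Gm3255 and with a second copy in the genome. Trp53inp1, a p53-induced gene, had one at 3562 and 3963 bases with 124 and 121 IP reads (4.45 and 4.88), in A630034I12Rik. Abcf1, of the ATP-binding cassette family, had one at 4356 and 4345 bases (6.50 and 4.95), in Gm8801, and it too has a second copy. Car5b, a mitochondrial carbonic anhydrase, had several, all in Gm38561: at 1636 bases in both replicates (4.24 and 7.88, with 81 and 90 IP reads), at 3009 in replicate 1 alone (4.16, under the same wide peak of replicate 2), and at 4369 and 4319 (4.88 and 4.48). The window below shows the motif near the 1636-base summit on the strand of Gm38561, with its A 17 bases past the summit in both replicates.
Car5b, read on the strand of Gm38561 (plus strand, chrX:163975188-163975217): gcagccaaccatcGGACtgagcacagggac
It shares 26 of 30 bases with the Heatr5b window above, although these genes lie on different chromosomes. Repeats as masked in the assembly made up 97.4% of the Heatr5b peak and 98.1% of the Car5b peak of replicate 1.

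A poly(A) signal ahead of the summit did not separate the strands at the threshold. AATAAA lay within 500 bases past the summit on the strand of the gene in 45 members (20.9%) and on the opposite strand in 30 (14.0%) in replicate 1, and in 45 (22.7%) and 33 (16.7%) in replicate 2. By the exact McNemar test the adjusted p was 0.0652 in replicate 1 and 0.155 in replicate 2. Over all flanks, 29.7% of 500-base windows held AATAAA on a given strand. Members outside the chromosome 2 interval described below held it on the strand of the gene in 28.8% and 29.8%, and those inside it in 1.61% and 5.26%. When 1000 bases were searched the difference grew to 11.2 percentage points (adjusted p = 0.0160, exact McNemar test) in replicate 1 and 13.6 (adjusted p = 0.00668) in replicate 2, and with 200 bases it was -0.465 in replicate 1.

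A large share of all members came from a single interval of chromosome 2, between the genes Edn3 and Phactr3 (chr2:174784043-178118974, 3.33 Mb), which was picked out after the positions were seen. It held 62 members of replicate 1 (28.8%, exact 95% interval 22.9 to 35.4) and 57 of replicate 2 (28.8%, 22.6 to 35.6), although all peaks of the interval together were 113 and 103, or 0.723% and 0.693% of the lists. The flanks there held 289 summits per Mb (221 to 370) in replicate 1 and 265 (201 to 344) in replicate 2, against 2.22 (1.88 to 2.60) and 2.05 (1.72 to 2.41) in all other flanks. The interval has 45 protein-coding genes, of which 10 are named Zfp and 34 Gm, and 16 of the 32 that matched a RefSeq protein have "zinc finger" in its name. Zinc finger genes of this kind encode DNA-binding proteins, many of which silence retrotransposons, and they lie in arrays that grew by duplication. Among the 120 genes with a member in both replicates, 25 were in the interval, and 17 of those 25 (68.0%) have no annotated 3′ UTR.

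**Figure D4:**
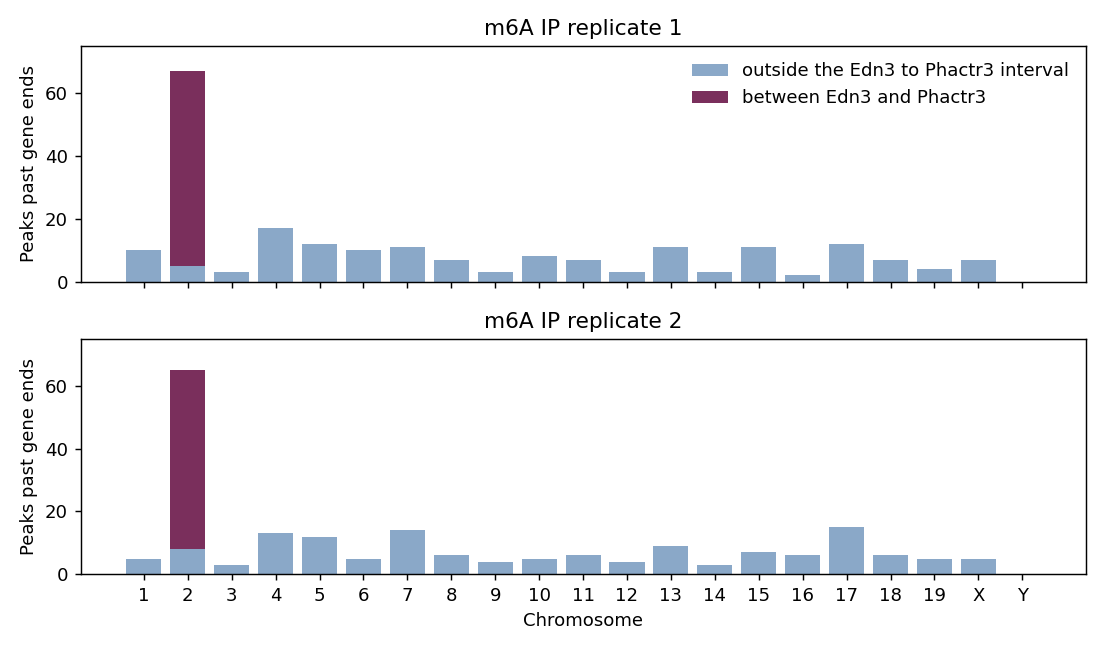
Number of peaks past gene ends on each chromosome in IP replicate 1 (top) and replicate 2 (bottom), with those between Edn3 and Phactr3 in dark colour. Chromosome 2 holds 67 and 65 members, of which 62 and 57 lie in that interval, and no other chromosome exceeds 17 and 15.

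Genes of the interval often had several peaks past the same end. Zfp971 had 4 that overlapped between replicates: at 1378 and 1379 bases (fold enrichment 8.23 and 9.28, with 82 and 77 IP reads), at 2756 and 2786 (6.37 and 9.96), at 3801 and 3798 (7.76 and 6.75) and at 4533 in both (8.33 and 8.84). The first peak of replicate 2 also covered a separate one of replicate 1 at 2000 bases (6.96). Gm14288 had 3, the first at 439 and 477 bases with folds of 14.4 and 10.5 and the others at 2729 and 2734 (4.51 and 8.08) and at 3368 and 3435 (7.37 and 6.76). Zfp965, Zfp966, Zfp968, Zfp969 and Gm14440 had 3 each as well, and Zfp967, Zfp931, Gm14305, Gm14325, Gm14419, Gm14434, Gm14435, Gm11007 and Gm2007 had 2. The highest fold of all members, 16.3, was past Gm14440 at 435 bases in replicate 1, where replicate 2 had an overlapping peak with its summit at 1069 bases and a fold of 5.08. Zfp970 had a single one, at 438 and 439 bases (8.43 and 8.57). Of the 20 genes with 2 or more shared peaks, only 4 lay elsewhere, namely Car5b, Hist1h4m, Zfp114 and Gm15446.

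Peaks of the interval repeated each other's sequence. A match of at least 98% identity over at least 90% of the peak was found elsewhere in the genome for 57 of 62 members of replicate 1 (91.9%) and 53 of 57 of replicate 2 (93.0%), against 26 of 153 (17.0%) and 20 of 141 (14.2%) of the other members. Of the peaks outside genes and away from gene ends, 42.1% and 43.0% had such a match. Reads from such copies cannot be assigned to a gene with certainty, and how reads with several matches were handled is not given in the sources used here. The motif windows show the repetition. Of the pairs of overlapping peaks in the interval, 38 had a GGAC within 100 bases of both summits, and their windows comprised only 18 different 30-base sequences. Those that stood past 3 or more genes are given below with the genes.
Gm14288, Gm14435, Gm14440, Zfp965, Zfp968 and Zfp969: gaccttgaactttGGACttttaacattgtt
Zfp965, Zfp966, Zfp967 and Zfp968: agaggccaaggaaGGACactggagaaggtg
Gm14305, Gm14325 and Zfp971: ccatgttttgggaGGACtgtggaaggactt
Gm11007, Gm14399 and Gm14434: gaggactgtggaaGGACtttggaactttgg
Gm11007, Gm14419 and Gm2026: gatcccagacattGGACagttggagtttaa
Gm14295, Gm14305 and Gm2004: ttgtgctgtggctGGACttggtagtgtgta
For the first of these the copy past Gm14288 is at chr2:175785913-175785942 (minus strand). Within the interval 88.9% of the bases in members of replicate 1 and 88.4% in those of replicate 2 were masked as repeat, against 30.6% and 33.9% in the other members and 10.8% and 11.1% over all peaks. In peaks outside genes and away from gene ends the masked share was 37.1% and 36.9%. GGAC stood on the strand of the gene in 45 and on the opposite strand in 7 of the 62 members of replicate 1, and in 47 and 2 of the 57 of replicate 2. Taking windows as alike from 24 of 30 bases, 68 members of replicate 1 and 61 of replicate 2 had a like window past another gene's end, and 57 and 52 of these were in the interval.

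Most members were found again in the other library. A peak of the other replicate overlapped 163 of 215 members of replicate 1 (75.8%, exact 95% interval 69.5 to 81.4) and 155 of 198 of replicate 2 (78.3%, 71.9 to 83.8), and for 155 and 151 of these the other peak was itself past a gene end. Over all peaks of the lists the share with an overlap was 80.6% in replicate 1 and 83.9% in replicate 2. Members without a counterpart had few reads, with medians of 13 and 16 IP reads against 37 and 35 for those with one. Among 131 one-to-one pairs past the same gene the summits lay a median of 20 bases apart, and in 122 pairs (93.1%) the folds differed by no more than 2-fold. Spearman's rho of the fold across the 131 pairs was 0.410. It was 0.485 over the 95 pairs outside the chromosome 2 interval and 0.0505 over the 36 inside it. These are descriptions across peaks of the same 2 libraries.

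**Figure D5:**
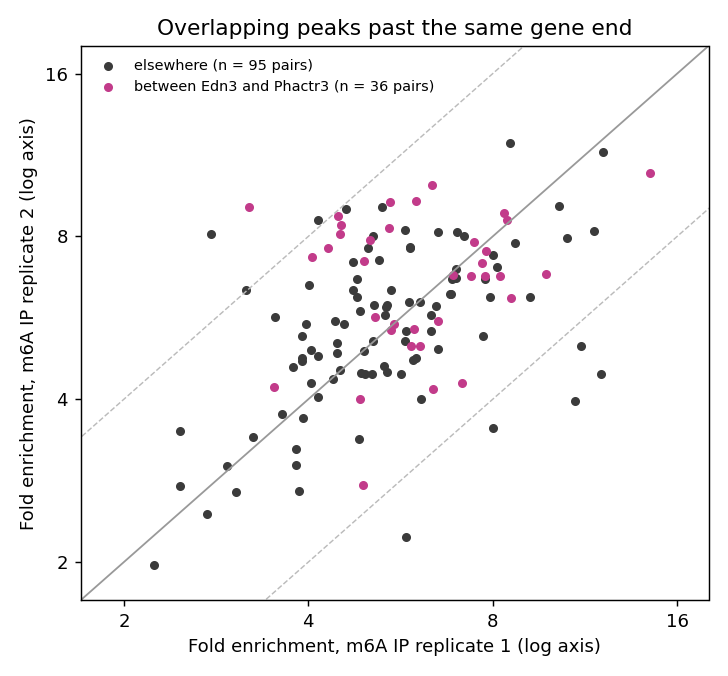
Fold enrichment (log axes) of the 131 one-to-one pairs of overlapping peaks past the same gene end in IP replicate 1 and replicate 2, with the 36 pairs between Edn3 and Phactr3 in pink. The solid line marks equal folds and the dashed lines a 2-fold difference, within which 122 pairs lie.

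Members recurred between replicates less often than peaks in distal 3′ UTRs did, while no difference in the share with the motif passed the test. Overlap with the other replicate was less frequent than among the 1853 and 1826 peaks in distal 3′ UTRs (over 200 bases past the stop codon), where it was 87.2% (85.5 to 88.6) in replicate 1 and 88.1% (86.5 to 89.6) in replicate 2. The difference passed Fisher's exact test (two-sided, Benjamini-Hochberg over 8 tests) in replicate 1 (adjusted p = 0.000209) and in replicate 2 (adjusted p = 0.00118). Distal 3′ UTR peaks were deeper, with medians of 72 and 70 IP reads, and the part of depth in this difference was not tested. Among peaks of 40 or more IP reads the overlap was 92.5% of 80 members and 91.1% of 1398 distal 3′ UTR peaks in replicate 1, and 90.1% of 71 and 94.3% of 1350 in replicate 2. From 20 to 39 IP reads it was 88.5% and 86.9% in replicate 1, and 86.8% and 77.5% in replicate 2, in the same order. Under 20 IP reads it was 47.3% and 58.5% in replicate 1, and 54.2% and 58.6% in replicate 2. Against the 954 and 834 summits outside genes and away from gene ends, members overlapped more often in replicate 1 (75.8% against 66.9%, adjusted p = 0.0310 by Fisher's exact test), a call that was lost without the chromosome 2 interval (2.19 percentage points, adjusted p = 0.734) and without peaks that have a second copy (9.11 percentage points, adjusted p = 0.145). The summits away from gene ends were shallower, with medians of 19 and 22 IP reads. By depth, members and these summits of replicate 1 overlapped in 47.3% and 46.4% of peaks under 20 IP reads, in 88.5% and 84.4% from 20 to 39, and in 92.5% and 92.4% at 40 or more. In replicate 2 the overall shares were 78.3% and 76.7% (adjusted p = 0.755, Fisher's exact test). By depth they were 54.2% and 59.8% under 20 IP reads, 86.8% and 83.6% from 20 to 39, and 90.1% and 97.0% at 40 or more.

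GGAC on either strand within 50 bases of the summit was present in 70.2% (63.6 to 76.3) of members of replicate 1 and 69.2% (62.3 to 75.5) of replicate 2. It was present in 69.0% and 66.4% of distal 3′ UTR peaks and in 65.3% and 67.9% of the summits away from gene ends. None of these 4 differences passed Fisher's exact test, with adjusted p between 0.351 and 0.755. Over all windows of that length in the flanks the share was 43.1%.

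Lists of genes chosen for this tissue were searched for peaks past the end. Of 116 genes in lists of haematopoietic transcription factors, cytokine receptors, m6A machinery, 3′ end processing and interferon and inflammation, 4 (3.45%) had a member in both replicates and 5 (4.31%) in either, beside 0.547% and 0.916% of all protein-coding genes. The listed genes also held exonic summits more often: 81 of the 116 had one in both replicates, against 30.9% of all protein-coding genes. These lists hold genes picked with earlier results known, and the shares were not tested. None of the 35 transcription factors had a member in either replicate, although 28 had an exonic summit in both. Epor, the erythropoietin receptor (1 of 25 cytokine receptors and signalling genes), had a summit at 3297 and 3274 bases with 51 IP reads in both and a fold of 3.63 and 3.75, in a RefSeq exon of Gm45914 on the same strand and 155 and 132 bases before the start of Swsap1. Rbm15, which brings the methyltransferase complex to RNA, had one at 207 and 141 bases (6.96 and 6.70) in an exon of a longer RefSeq transcript of the gene. It was among 14 genes of the m6A machinery. Pabpn1, described above, was the only one of 22 genes of 3′ end processing, and Ifnar1, a subunit of the type I interferon receptor, the only one of 20 interferon and inflammation genes, at 2789 and 2880 bases (3.91 and 4.70) in the RefSeq 3′ UTR. Ythdf2 itself had a member in replicate 1 only, 3335 bases past its end with 26 IP reads and a fold of 6.01, which overlapped no peak of replicate 2.

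Peaks past the end and peaks in exons of the same gene did not always go together. Of the 120 genes with a member in both replicates, 63 (52.5%) also had an exonic summit in both, against 30.9% of all protein-coding genes, and 45 had none in either. Prr14, Trp53inp1 and Vmn2r85 were of the latter kind, whereas Lpar5 and Fan1 had an exonic summit in both replicates. In the genes with several shared peaks outside the chromosome 2 interval, Zfp114, a zinc finger gene, had an exonic summit in both replicates beside summits at 732 and 759 bases (4.0 and 6.52, with 10 and 11 IP reads) and at 1368 and 1361 (8.54 and 11.9). Gm15446 likewise had exonic summits beside those at 3412 and 3433 bases (4.57 and 5.52) and at 4739 and 4923 (5.67 and 4.46). Hist1h4m, a gene of the histone H4 family, had none in an exon, and its summits lay at 3935 and 4027 (5.10 and 5.12) and at 4711 and 4697 bases (4.43 and 5.59). In replicate 1 the sequences of its peaks occurred at 42 and 34 places in the genome.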

How the data were processed

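The RNA of 2 m6A IP and 2 input samples had been sequenced by the authors, aligned to GRCm38 (mm10 in the submitters' processing notes) with HISAT2 and searched for peaks with MACS2 (version 2.1.1.20160309, nomodel) in each replicate. The deposited lists give, per peak, the fold enrichment (a ratio of IP over local background), -log10 p and -log10 q, a score that is the whole part of 10 times -log10 q (tested: 0 exceptions), and the summit offset. The threshold and control are not given in the sources used here; the lowest -log10 q was 1.307 and 1.305 in replicates 1 and 2.

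The summit is the start plus the offset, written 1-based. Gene bodies were the 55450 gene records of GENCODE M21, identical in the basic and comprehensive files; spans of basic transcripts, a narrower reading, gave 256 and 242 members, of which 208 and 194 were in common. A member within reach of several ends was given to the nearest (20 and 22 members had 2 or more). RefSeq (release 108.20200622) genes were matched by symbol or Entrez identifier. IP and background reads were solved from fold enrichment and -log10 p under the MACS2 formulas, with 100% of peaks of both lists matched within 0.001. Library totals are not in the lists. Copies were found with BLAST+ 2.17.0+ for peaks outside genes, and motifs were searched on GRCm38.p6 (GGAC on both strands; AATAAA and ATTAAA as stated). Shares have exact Clopper-Pearson and densities exact Poisson 95% intervals, which cover counting error only. Tests were exact McNemar and Fisher tests (SciPy 1.17.1), tested on simulated data. No input values were analysed, so there was no second group to pair by replicate number.

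Named genes are those with overlapping members of both replicates past the same end: the 15 with the highest lower -log10 q, the 8 with the highest lower fold, the 5 farthest from the end among the first 50 by -log10 q, every gene with 2 or more shared peaks, list genes with members in both replicates, and members next to the threshold, of which 1 is not reported here. Members, lists and tests were chosen with earlier results of these data known. Alternatives are in the closing section.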

Additional observations from a re-analysis of the deposited data

How the results depend on the processing

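The excess of GGAC on the strand of the gene kept its direction and its side of the threshold in both replicates under every alternative tried, as did the lower overlap than in distal 3′ UTRs and the direction of the density ratio. Alternatives on transcript spans, the chromosome 2 interval, second copies and nearby gene starts were chosen after seeing the data. The number of members fell to 116 and 110 (replicates 1 and 2) with a reach of 2 kb and to 132 and 125 without second copies; leaving out a replicate gave 215 and 198. The overlap with the other replicate was 83.6% and 84.1% at a minimum -log10 q of 5, 61.9% and 65.2% with reciprocal overlap of 50%, 59.5% and 63.6% for summits within 100 bp, and 69.3% in replicate 1 without the chromosome 2 interval. The AATAAA difference, in percentage points, passed the threshold with a reach of 10 kb (10.6 and 8.36), by peak midpoint (9.30 and 13.3) and over 1000 bases (11.2 and 13.6), and in replicate 1 with transcript spans (8.59), without second copies (14.4) and without replicate 2 (6.98, adjusted over fewer tests; leaving out replicate 1 gave 6.06 in replicate 2), and was -0.465 in replicate 1 over 200 bases. Against summits away from gene ends, the overlap difference in replicate 1 missed the threshold without the interval (2.19) and without second copies (9.11), and in replicate 2, where it had not passed, it was -4.27 and -0.463. GGAC on either strand, which passed in no comparison, changed sign in replicate 2 against summits away from gene ends over 100 bases (-4.32), without the interval (-4.50) and without second copies (-1.77), and against distal 3′ UTRs in replicate 2 (-2.43, -2.51 and -0.775 in the same order) and in replicate 1 without the interval (-0.308) and without second copies (-1.545). Copies were not counted for peaks in genes, so none of the distal 3′ UTR peaks was left out for having one. The cause of these shifts was not tested. No paired analysis was possible because a single peak list per IP replicate was analysed and no input values were, which left no second group to pair.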
